A study of Mus musculus with 15 samples.

Results

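The genes described here encode axonemal dyneins and other parts of the motile ciliary and flagellar axoneme. They were chosen by name, from a list of 40 genes in 9 structural roles, and all 40 were matched among the 50051 features of the long RNA counts. The filter on low counts kept 20782 features, and 40 of the 40 genes were among them. Measured levels did not enter the choice of list, but the list was drawn up with earlier results of these data known.

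The libraries came from testes of mice at postnatal day 28, all labelled with the hybrid strain B6D2F1, and the series concerns pachytene piRNAs of chromosome 18. Long RNA was sequenced from 3 wild-type (Chr18+/+), 3 heterozygous (Chr18+/-) and 3 homozygous (Chr18-/-) testis samples with a stranded, rRNA-depleted total RNA kit. Small RNA was sequenced after periodate treatment, which enriches 2'-O-methylated RNAs such as piRNAs, from 3 heterozygous and 3 homozygous samples. The labels name the heterozygotes as controls as well as the wild type, and how the allele was made was not given in the sources used here.

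The axoneme of a sperm flagellum is a ring of doublet microtubules around a central pair. Dynein heavy chains in the outer and inner arms walk along the neighbouring doublet and make the flagellum bend, while the nexin-dynein regulatory complex, the radial spokes and the central apparatus hold the doublets together and time the dyneins. In the testis these genes are transcribed mainly from meiotic prophase onward, when germ cells prepare for flagellum assembly in spermatids, and in other tissues they mark cells with motile cilia.

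Promoters were examined because the RFX transcription factors, regulators of ciliary genes, bind a sequence called the X-box. RefSeq promoter windows (build GRCm38.p6, from 250 bases before to 50 after a start site) were found for 33 of the 40 genes. For 23 of the 33, the 50 bases after a start site lay in a GENCODE transcript of the gene. The full X-box, searched on both strands as GTTNCC, any 3 bases and GNAAC, lay in the windows of 4 of these 33 genes, against 0.936% of the 27025 genes with a window. The 4 stretches follow 5' to 3' on the gene strand with the match in capitals, and positions count from 0 at the start site.
Cfap61 (chr2:145934761-145934804, plus strand, match from position -8): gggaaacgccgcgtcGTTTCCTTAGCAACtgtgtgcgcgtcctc
Hydin (chr8:110266941-110266984, plus strand, from -21): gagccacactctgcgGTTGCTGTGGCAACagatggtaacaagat
Cfap44 (chr16:44394757-44394800, plus strand, from -27): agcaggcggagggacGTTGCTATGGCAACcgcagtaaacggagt
Tekt4 (chr17:25471575-25471618, plus strand, from 0): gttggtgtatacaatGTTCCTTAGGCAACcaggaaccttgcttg
The match reads on the gene strand in Cfap61 and on the other strand in the remaining 3.

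The short X-box site GTTGCC, which also lies inside the full matches of Hydin, Cfap44 and Tekt4, was present on either strand in 13 of the 33 genes, or 39.4%. Among all genes with a window it was present in 14.1%. The cAMP response element TGACGTCA was found in 1 of the 33, Dnah6, against 2.03% of all genes. Of the 12 genes with a window that were called in a comparison, 3 carried the short site and 0 the full X-box. In Tekt2 the site shown is on the other strand, and a further short site on the gene strand, within chr4:126325752-126325811, is not shown. These 3, of which Dnah7b rose and Spag6 and Tekt2 fell, are shown with the short site in capitals.
Dnah7b (chr1:46066663-46066722, plus strand): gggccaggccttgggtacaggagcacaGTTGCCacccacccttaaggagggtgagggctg
Spag6 (chr2:18698958-18699017, plus strand): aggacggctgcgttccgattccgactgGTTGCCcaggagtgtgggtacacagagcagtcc
Tekt2 (chr4:126325678-126325737, minus strand): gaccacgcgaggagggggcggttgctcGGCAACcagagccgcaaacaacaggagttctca
The gene with the largest difference between genotypes was Dnah11, and the 250 bases before its RefSeq start held none of the 3 motifs.
Dnah11 (chr12:118199044-118199293, minus strand): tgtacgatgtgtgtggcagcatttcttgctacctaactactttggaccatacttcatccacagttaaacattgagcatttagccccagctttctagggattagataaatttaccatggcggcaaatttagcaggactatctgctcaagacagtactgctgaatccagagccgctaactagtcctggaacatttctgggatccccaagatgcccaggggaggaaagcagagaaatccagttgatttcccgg
A match is a description of these letters, and binding was not measured.

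Long RNA libraries held 21684791 to 41513634 fragments assigned to features on the kit's strand. The pair of divergent piRNA precursors annotated on chromosome 18 summed to 294 to 337 CPM (counts scaled to library depth) for Chr18+/+, 153 to 231 for Chr18+/- and 0.115 to 0.248 for Chr18-/-. Wild-type library 1 and heterozygous library 1 differed most from the other 2 libraries of their groups, and small RNA heterozygous library 1 likewise. Calls for the genes of the list that rest on these libraries are therefore also given without them. Results for other named genes, cell type markers and the opposite strand are given with all libraries only, so their dependence on these libraries was not tested. Nothing in the labels says that libraries of a group came from separate animals, so the p-values measure the spread between these samples, which may be technical.

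Levels differed between the genes far more than between the genotypes. Counts covered whole gene bodies, introns included, so levels were compared between genes as CPM per kb of gene body. The highest was Tekt4, a tektin of the flagellum, at 45.6 CPM per kb over all libraries, followed by the outer arm heavy chain Dnah8 at 12.8. In all, 7 of the 40 genes stood above 10 CPM per kb and 25 above 1. Only 4 stood under 0.1 CPM per kb: Rsph4a (0.0379), Dnah9 (0.0329), Dnah11 (0.0160) and Dnah5 (0.0107).

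Those 4 are genes best known from motile cilia of the airway, where DNAH5, DNAH9 and DNAH11 form the outer arms and RSPH4A the spoke head. Sperm outer arms use DNAH8 and DNAH17. Per kb of gene body Dnah8 stood highest of the 5 outer arm heavy chains and Dnah17 next, at 2.72 CPM. Ratios between genes on this scale depend on how much of each body is intron.

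**Figure D1:**
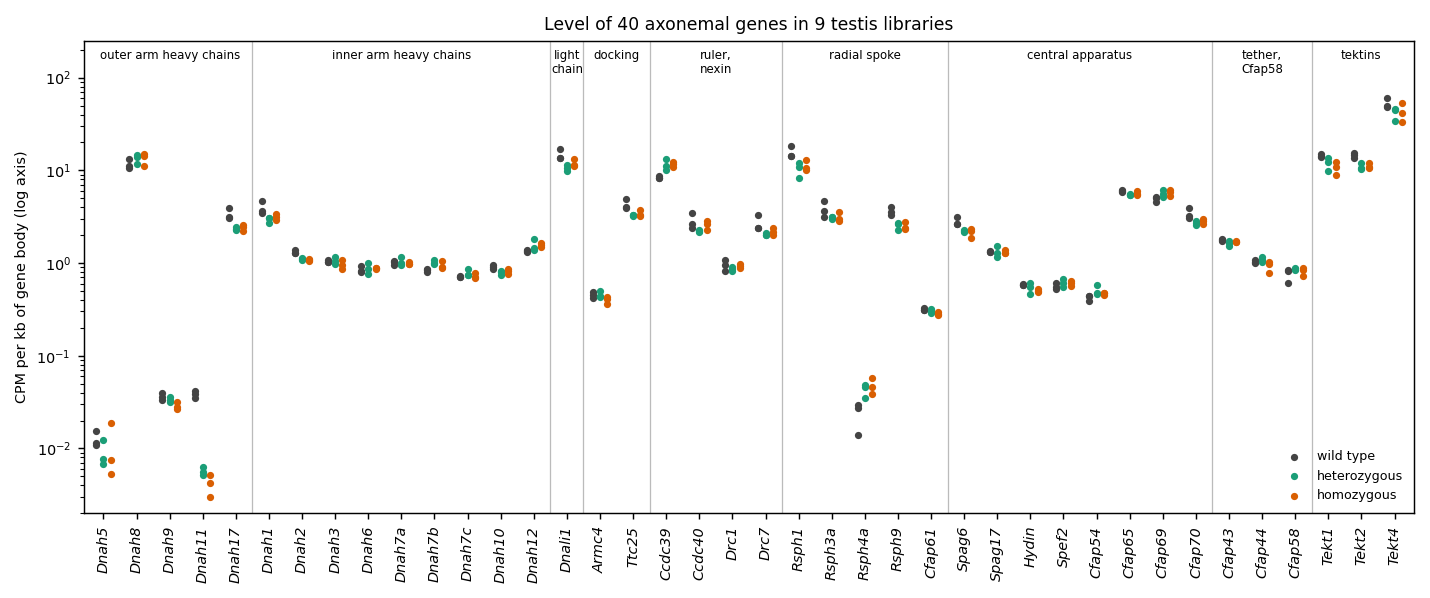
Level of each of the 40 genes in CPM per kb of gene body (log axis), by role; each point is 1 long RNA library, coloured by genotype. Tekt4 sits highest, Dnah5, Dnah9, Dnah11 and Rsph4a sit under 0.1, and only Dnah11 shows genotypes separated by most of a log10 unit.

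Between heterozygotes and wild type, 14 of the 40 genes passed the test (edgeR quasi-likelihood, Benjamini-Hochberg adjusted p under 0.05 over all 20782 features), 2 higher and 12 lower. The background in this comparison was 23.9% of all features called, 11.1% higher and 12.9% lower. The heterozygous libraries lay wholly below wild type for 17 genes and wholly above for 5, where 42.1% of all features did not overlap, 20.5% higher and 21.6% lower. The genes' median log2 fold change was -0.13, against 0.00 for all features. Apart from Dnah11, the genes that fell did so by 0.26 to 0.58 on the log2 scale.

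Between homozygotes and wild type, 9 of the 40 passed, 1 higher and 8 lower, where 20.8% of all features were called, 9.68% higher and 11.1% lower. At an unadjusted p under 0.05 there were 16, against 35.7% of all features, and 19 in heterozygotes, against 37.8%. The homozygous libraries lay wholly below wild type for 17 genes and wholly above for 6, where 42.6% of all features did not overlap, 20.6% higher and 22% lower. The median was -0.16, against -0.01 for all features. Apart from Dnah11, the genes that fell did so by 0.30 to 0.55 on the log2 scale. Both comparisons share the 3 wild-type libraries. Without wild-type library 1, 6 passed in homozygotes and 6 in heterozygotes, where 13.8% of all features were called in each. Without wild-type library 1 and heterozygous library 1 together, 5 passed in heterozygotes, where 13.0% of all features were called. With no scaling beyond library size, calls over all features were 66.8% higher in heterozygotes, against 46.3% as scaled here, and 56.9% in homozygotes, against 46.6%, while the medians of the 40 genes stayed below 0 at -0.03 and -0.11. In this whole-tissue RNA, fewer cells of a type and less RNA per cell cannot be told apart.

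Homozygotes against heterozygotes gave 0 of 40 genes called in edgeR and 0 in DESeq2, where edgeR called 0.0289% of all features, 0.0144% higher and 0.0144% lower. Dnah11 was the 1 gene at an unadjusted p under 0.05, as were 3.07% of all features. Its log2 fold change was -0.46 ± 0.20 (SE), with an adjusted p of 1.00. The 40 fold changes ran from -0.46 to 0.23 on the log2 scale with a median of 0.02 and a median standard error of 0.11. The libraries of the 2 genotypes overlapped for 39 of the 40, the exception being Armc4, whose homozygous libraries were all lower (8.31% of all features did not overlap, 3.86% higher and 4.45% lower). This is 2.5% of the 40 genes, under the share of all features. Armc4 lies on chromosome 18 (start at 7.09 Mb), as does the mutated locus, and a link to the locus was not tested. The CPM of Armc4 was 95.7 ± 8.04 (SD, n = 3) in heterozygotes and 83.5 ± 7.47 in homozygotes.

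**Figure D2:**
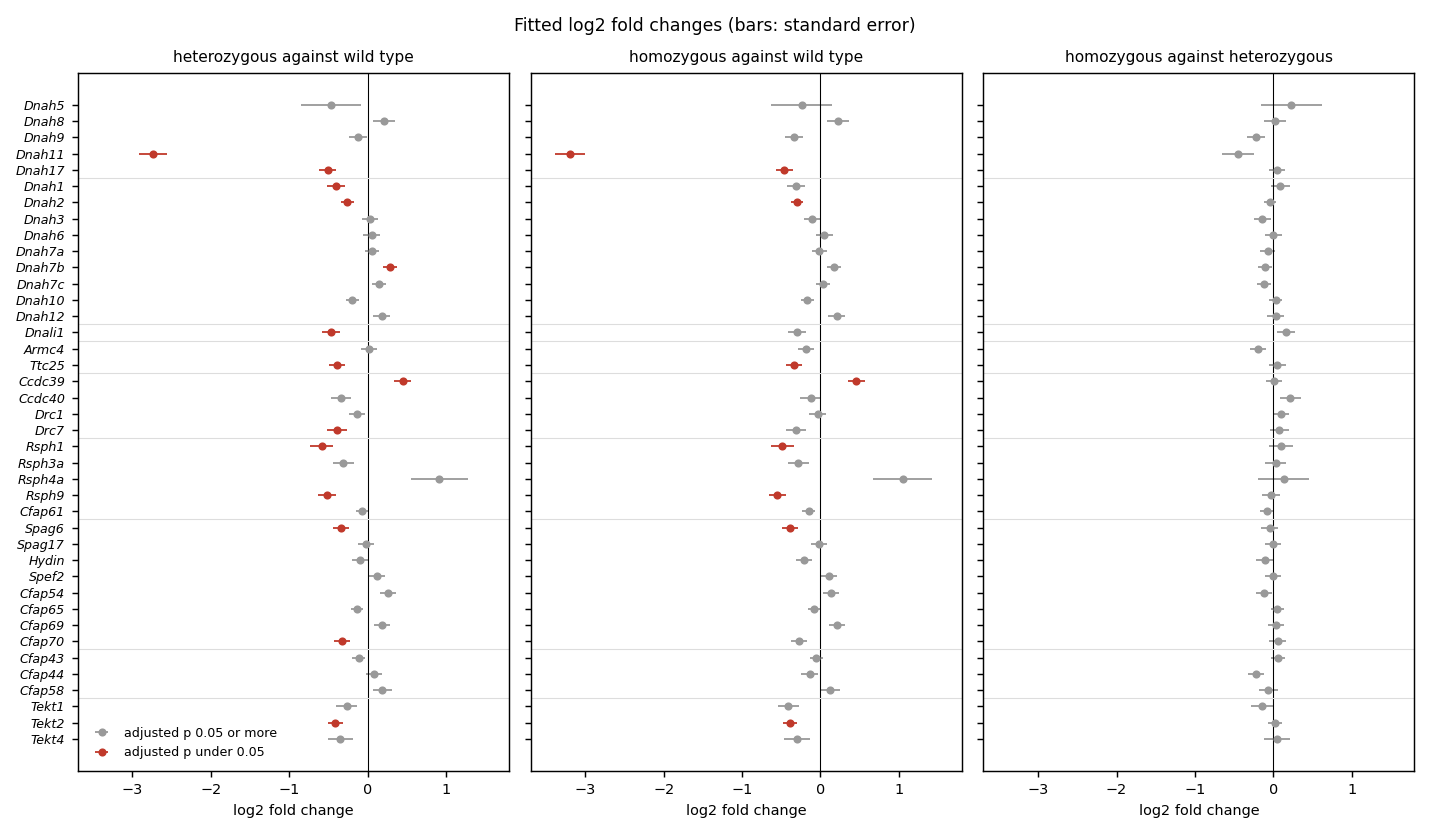
Fitted log2 fold change of each of the 40 genes in the 3 comparisons, with standard error bars; red points have an adjusted p under 0.05. Dnah11 lies at -2.74 and -3.20 against wild type, all other called genes lie between -0.58 and 0.46, and no gene is red between homozygotes and heterozygotes.

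Among the 5 outer arm heavy chains, Dnah11 and Dnah17 fell in both mutant genotypes. Dnah11 (ENSMUSG00000018581.15, chr12:117877982-118199043, minus strand, mm10) encodes an outer arm heavy chain of airway and nodal cilia. Its counts were 398, 306 and 291 for Chr18+/+, 88, 54 and 48 for Chr18+/- and 38, 48 and 25 for Chr18-/-. Scaled to depth these were 12.3, 11.3 and 13.2 CPM, then 2.01, 1.81 and 1.65, then 1.35, 1.68 and 0.962. Every mutant library lay far below every wild-type library, while the mutant genotypes overlapped. The level was 14.9% of wild type in heterozygotes (log2 fold change -2.74 ± 0.18 SE, adjusted p = 5.06e-06) and 10.8% in homozygotes (-3.20 ± 0.19, adjusted p = 1.59e-06). These counts cover the whole gene body with introns, and fragments from exons were not counted apart.

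RNA from the strand opposite to Dnah11 was not lower in the mutants. On the scale of the gene-strand counts it stood at 2.92 ± 0.23 CPM (SD, n = 3) for Chr18+/+, 3.53 ± 0.107 for Chr18+/- and 3.89 ± 0.396 for Chr18-/-. The opposite-strand count was 24.1% of the gene-strand count for Chr18+/+, 190% for Chr18+/- and 291% for Chr18-/-. Tested alone, it did not differ from wild type past the threshold (adjusted p = 0.268 in heterozygotes and 0.0718 in homozygotes). Cdca7l, on the other strand, overlaps the 3' end of Dnah11, so its fragments there can enter this opposite-strand count. The opposite-strand log2 fold changes were 0.32 in heterozygotes and 0.53 in homozygotes, beside 0.34 and 0.58 for Cdca7l. The part of Cdca7l in the count was not tested.

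The tested genes nearest to Dnah11 on either side of it on chromosome 12 did not fall past the threshold. Annotated genes that the filter on low counts removed were not considered. In homozygotes against wild type the log2 fold change was -0.25 for Rapgef5 (adjusted p = 0.139), 0.58 for Cdca7l (0.00416), 0.46 for Sp4 (0.0149) and -1.09 for Abcb5 (0.327). In heterozygotes it was -0.04, 0.34, 0.47 and -0.10, with adjusted p of 0.831, 0.0340, 0.0126 and 0.935. Cdca7l, which overlaps the 3' end of Dnah11 on the other strand, and Sp4, the next of these genes upstream, both rose.

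**Figure D3:**
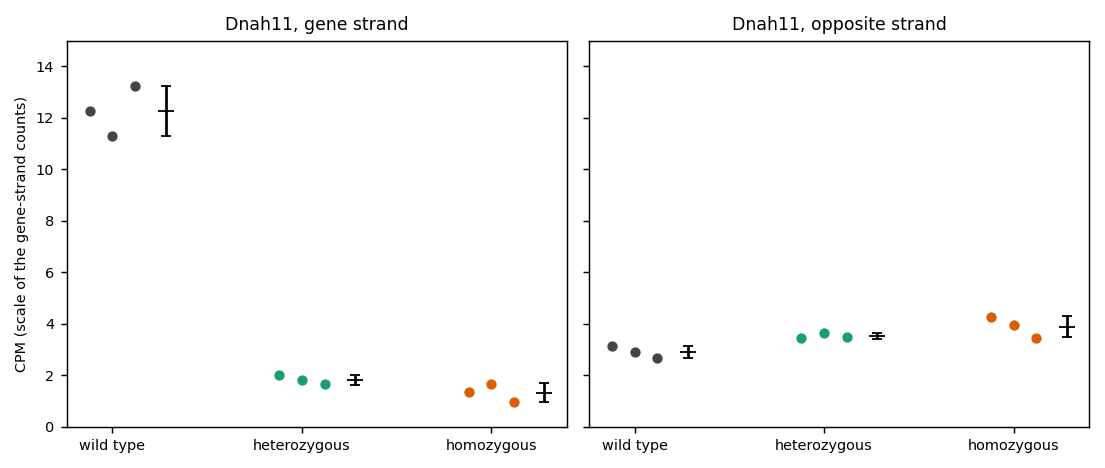
CPM of Dnah11 on its own strand and on the opposite strand in each of the 9 long RNA libraries (points), with mean and SD of 3 libraries (bars). On the gene strand the wild-type libraries lie between 11.3 and 13.2 CPM and all mutant libraries at or under 2.01, while the opposite strand lies between 2.68 and 4.25 in all 9.

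Dnah17 (chr11:118021723-118130634, minus strand) encodes an outer arm heavy chain of sperm. It stood at 423, 331 and 343 CPM for Chr18+/+, 246, 268 and 256 for Chr18+/- and 283, 269 and 244 for Chr18-/-. All 6 mutant libraries were below all 3 wild-type libraries, with a log2 fold change of -0.51 ± 0.11 in heterozygotes (adjusted p = 0.00800) and -0.46 ± 0.11 in homozygotes (0.0126), the latter lost without homozygous library 3. Its partner in sperm outer arms, Dnah8 (chr17:30624354-30875264, plus strand), did not share this. It had 3291, 2765 and 2641 CPM for Chr18+/+, 3485, 3634 and 2916 for Chr18+/- and 3731, 2818 and 3621 for Chr18-/-. These groups overlapped, and the log2 fold changes of 0.21 ± 0.14 and 0.23 ± 0.14 did not pass (adjusted p = 0.303 and 0.269). Dnah8 alone supplied 2899 of the 9594 CPM that the 40 genes held in wild type on average. That sum did not separate the genotypes: it ran from 9116 to 10395 for Chr18+/+, 9576 to 9765 for Chr18+/- and 8903 to 10103 for Chr18-/-.

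The remaining outer arm heavy chains were low. Dnah9 stood at 12.3 ± 1.04 CPM for Chr18+/+, 11.3 ± 0.738 for Chr18+/- and 9.69 ± 0.901 for Chr18-/-. Its homozygous libraries were all below wild type, with a log2 fold change of -0.34 and an adjusted p of 0.0602. Dnah5 stood at 3.37 ± 0.631, 2.39 ± 0.771 and 2.83 ± 1.96 CPM, and its groups overlapped in each comparison.

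Of the 9 inner arm heavy chains, Dnah1 and Dnah2 fell and Dnah7b rose in heterozygotes, and Dnah2 fell in homozygotes. Dnah1 (chr14:31260375-31323896, minus strand), a single-headed inner arm dynein needed for sperm motility, had 294, 231 and 220 CPM for Chr18+/+, 173, 195 and 196 for Chr18+/- and 201.5, 214 and 185 for Chr18-/-. Both mutant groups lay below wild type, and the log2 fold changes were -0.40 ± 0.12 (adjusted p = 0.0273) and -0.31 ± 0.12 (0.0754). Dnah2 (chr11:69420809-69549110, minus strand), a heavy chain of the double-headed inner arm dynein, had 178, 163 and 165 CPM for Chr18+/+, 140.5, 139.7 and 144 for Chr18+/- and 138, 140.2 and 134 for Chr18-/-. The mutant libraries were tightly grouped below wild type, at -0.26 ± 0.08 (adjusted p = 0.0331) and -0.30 ± 0.08 (0.0208). In heterozygotes the call for Dnah1 was lost without wild-type library 1 or heterozygous library 1 or 3, and that for Dnah2 when any 1 of the 6 libraries compared was left out. In homozygotes the call for Dnah2 was lost without homozygous library 2 or 3.

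Dnah10, the partner of Dnah2 in the double-headed dynein, did not pass in either genotype (-0.20 and -0.17, adjusted p = 0.112 and 0.183), although no mutant library reached the wild-type range. Dnah7b (chr1:46066315-46373546, plus strand), a single-headed inner arm heavy chain, had 260.5, 263 and 248.5 CPM for Chr18+/+, 307, 302 and 331 for Chr18+/- and 274, 276 and 321 for Chr18-/-. Both groups lay above wild type, with a log2 fold change of 0.28 ± 0.09 in heterozygotes (adjusted p = 0.0421) and 0.17 ± 0.09 in homozygotes (0.194). Dnah7a, Dnah7b and Dnah7c are near-identical copies on chromosome 1, so the split of fragments among them is uncertain. The call for Dnah7b was lost in 12 of 18 alternative settings, among them without any 1 wild-type or heterozygous library. Dnah7a and Dnah7c had log2 fold changes of 0.06 and 0.15 in heterozygotes and -0.01 and 0.03 in homozygotes. Dnah3, Dnah6 and Dnah12 did not pass, with log2 fold changes from -0.10 to 0.21 in both comparisons.

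The inner arm light chain gene Dnali1 (chr4:125055338-125065703, minus strand) fell in heterozygotes. It had 177, 139.9 and 140.7 CPM for Chr18+/+, 109.8, 119 and 103 for Chr18+/- and 137, 116 and 118 for Chr18-/-. No mutant library reached the wild-type range, with log2 fold changes of -0.47 ± 0.11 (adjusted p = 0.0139) in heterozygotes and -0.30 ± 0.11 (0.0756) in homozygotes. The call was lost without heterozygous library 3, and without wild-type library 1 and heterozygous library 1 together.

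Of the 2 outer arm docking genes, Ttc25 fell in both mutant genotypes and Armc4 did not pass. Ttc25 (chr11:100545607-100572568, plus strand), which encodes a protein of the complex that docks outer arms to the doublet, had 134, 107 and 108 CPM for Chr18+/+, 87.5, 89.1 and 89.8 for Chr18+/- and 101, 89.1 and 85.9 for Chr18-/-. It fell in both, by 0.39 (SE 0.10, adjusted p = 0.0208) and 0.33 (SE 0.10, adjusted p = 0.0406) on the log2 scale, and wild-type library 1 was the highest of the 9. Both calls were lost without that library, and also without heterozygous library 3 in heterozygotes, and in homozygotes without library 3 of wild type, 2 of heterozygotes or either 2 or 3 of homozygotes.

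Of the 4 ruler and nexin genes, Ccdc39 rose in both mutant genotypes and Drc7 fell in heterozygotes. Ccdc39 (chr3:33812362-33844310, minus strand) encodes a coiled-coil protein that with CCDC40 sets the spacing of inner arms and spokes along the doublet. It had 265, 277 and 267 CPM for Chr18+/+, 358, 323 and 421 for Chr18+/- and 348.5, 375 and 388 for Chr18-/-. All 6 mutant libraries were above all 3 wild-type ones, at 0.45 ± 0.10 (adjusted p = 0.0116) and 0.46 ± 0.10 (0.0111) on the log2 scale. Ccdc39 was the only one of the 40 genes called higher in homozygotes. The call in homozygotes was lost without homozygous library 3.

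The partner of Ccdc39 did not rise. Ccdc40 stood at 103 ± 21.2 CPM for Chr18+/+, 81.8 ± 2.51 for Chr18+/- and 94.99 ± 10.6 for Chr18-/-, with log2 fold changes of -0.34 (adjusted p = 0.0815) and -0.12 (0.536). Of the 2 nexin-dynein regulatory complex genes, Drc7 (chr8:95055103-95078141, plus strand) had 75.6, 55.1 and 54.9 CPM for Chr18+/+, 46.4, 48.7 and 46.65 for Chr18+/- and 54.4, 49.3 and 45.9 for Chr18-/-. Drc7 fell in heterozygotes (-0.39 ± 0.12, adjusted p = 0.0378) and not past the threshold in homozygotes (-0.31 ± 0.12, 0.0894), and the call was lost without wild-type library 1, homozygous library 2 or any 1 heterozygous library. Drc1 had log2 fold changes of -0.13 and -0.04, with overlapping groups.

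Rsph1 and Rsph9, both of the radial spoke head, fell in both mutant genotypes. Rsph1 (chr17:31255019-31277356, minus strand) had 409.7, 318 and 320.0 CPM for Chr18+/+, 269.5, 244 and 185 for Chr18+/- and 285, 226 and 237 for Chr18-/-. Every mutant library was below every wild-type library, at -0.58 ± 0.15 (adjusted p = 0.0173) and -0.49 ± 0.15 (0.0391). The call in heterozygotes was lost without wild-type library 1 or heterozygous library 3, and that in homozygotes without any 1 wild-type library or homozygous library 2 or 3.

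Rsph9 (chr17:46122035-46144216, minus strand), another spoke head gene, had 90.3, 79.1 and 72.4 CPM for Chr18+/+, 59.9, 58.7 and 50.2 for Chr18+/- and 60.9, 51.7 and 52.7 for Chr18-/-. The groups did not overlap with wild type, and the log2 fold changes of -0.52 ± 0.11 (adjusted p = 0.00813) and -0.55 ± 0.11 (0.00699) passed in all 18 alternative settings in both comparisons. Genes on the opposite strand overlap 31.0% of its body, and the opposite-strand count was 47.1% of its own.

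The third spoke head gene, Rsph4a, was near the limit of counting. It had 0.154, 0.296 and 0.318 CPM for Chr18+/+, 0.526, 0.501 and 0.378 for Chr18+/- and 0.496, 0.629 and 0.423 for Chr18-/-. All mutant libraries were above wild type, but the log2 fold changes of 0.92 ± 0.37 and 1.05 ± 0.37 did not pass (adjusted p = 0.0885 and 0.0648). Rsph3a, a spoke stalk gene with a near-identical copy Rsph3b, and Cfap61, of the complex at the spoke base, had log2 fold changes from -0.31 to -0.07 and did not pass.

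Among the 8 central apparatus genes, Spag6 fell in both genotypes and Cfap70 in heterozygotes. Spag6 (chr2:18694032-18750413, plus strand) encodes an armadillo-repeat protein of the central pair. It had 177, 148.3 and 147.8 CPM for Chr18+/+, 120.5, 124 and 129 for Chr18+/- and 133, 105 and 124 for Chr18-/-. The groups did not overlap with wild type, at -0.34 ± 0.11 (adjusted p = 0.0370) and -0.39 ± 0.11 (0.0251), and both calls were lost without wild-type library 1. The call in heterozygotes was also lost without any other of the 6 libraries compared or homozygous library 3, and that in homozygotes without homozygous library 2 or 3. Spag6 has a near-identical copy, Spag6l, whose log2 fold changes were -0.20 and -0.03 (adjusted p = 0.194 and 0.887), so the division of fragments between them is uncertain.

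Cfap70 (chr14:20394190-20452226, minus strand) had 227, 187 and 178 CPM for Chr18+/+, 157, 149 and 165.5 for Chr18+/- and 166, 171 and 152 for Chr18-/-. It fell in heterozygotes (-0.33 ± 0.10, adjusted p = 0.0382) and not past the threshold in homozygotes (-0.27 ± 0.10, 0.0783). The call was lost in 11 of 18 alternative settings, among them leaving out any 1 library but wild-type library 3. Cfap65, the central apparatus gene with the highest level per kb, had 206, 199 and 197 CPM for Chr18+/+, 181, 187 and 182 for Chr18+/- and 199, 188 and 182 for Chr18-/-. Its heterozygous libraries lay below wild type, but -0.13 ± 0.08 did not pass (adjusted p = 0.244). Spag17, Hydin, Spef2, Cfap54 and Cfap69, which encode projections of the central pair, ran from -0.21 to 0.26 in both comparisons and did not pass.

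The tether genes and Cfap58, a gene of the flagellar midpiece, gave no call. Cfap43 and Cfap44 encode the tether that links an inner arm dynein head to the doublet. Cfap43 (chr19:47737561-47919299, minus strand) had 331, 318 and 314 CPM for Chr18+/+, 276, 296 and 318 for Chr18+/- and 305, 305 and 317 for Chr18-/-, with overlapping groups. Log2 fold changes of the 3 genes ran from -0.14 to 0.19.

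Tektins are filament-like proteins inside the doublets. Tekt2 (chr4:126322121-126325688, minus strand) had 55.2, 48.2 and 52.7 CPM for Chr18+/+, 38.1, 42.3 and 37.0 for Chr18+/- and 42.8, 37.9 and 38.4 for Chr18-/-. It fell in both, by 0.41 (SE 0.09, adjusted p = 0.0103) and 0.39 (SE 0.09, adjusted p = 0.0141) on the log2 scale, with no overlap between mutant and wild-type libraries. The call in heterozygotes was lost without wild-type library 1 and heterozygous library 1 together, and that in homozygotes without homozygous library 2 or 3. Tekt1 stood at 254 ± 9.17 CPM for Chr18+/+, 211 ± 35.0 for Chr18+/- and 191 ± 31.1 for Chr18-/-, and its fold changes of -0.27 and -0.41 missed the threshold (adjusted p = 0.173 and 0.0509). Tekt4 (chr17:25471590-25476594, plus strand) had 298, 243 and 249.9 CPM for Chr18+/+, 227, 225 and 170.5 for Chr18+/- and 267, 167 and 208 for Chr18-/-. Its homozygous libraries overlapped wild type and neither fold change passed (-0.35 and -0.30, adjusted p = 0.142 and 0.209).

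Ordered by library, the median deviation of the 40 genes from their own mean over the 9 libraries was above 0 in all 3 wild-type libraries (0.06 to 0.12 on the log2 scale). It was below 0 in all 6 mutant libraries, at -0.07 to -0.02 in heterozygotes and -0.09 to -0.01 in homozygotes. In heterozygous library 3 and homozygous library 1, 20 and 19 of the 40 genes were above their mean, and 11 to 15 in the other mutant libraries. The median over all features was -0.01 to 0.02 in the 9 libraries.

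By rank, gene length moved with the fold changes. The gene bodies of the 40 genes ran from 3.57 to 382 kb with a median of 103 kb, against 18.6 kb for all tested features, and were 1.88 to 60.3 times as long as their exons. In heterozygotes against wild type, features with bodies of 300 kb and over had a median log2 fold change of 0.29, and those under 10 kb one of -0.14. In each length class the median of the listed genes lay under that of all features. For the 2 genes under 10 kb it was -0.38 against -0.14, for the 7 genes of 10 to 30 kb -0.39 against -0.05, for the 11 genes of 30 to 100 kb -0.13 against 0.09, for the 13 genes of 100 to 300 kb -0.01 against 0.19, and for the 7 longer genes 0.06 against 0.29.

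The same held in homozygotes against wild type, with -0.35 against -0.13, -0.33 against -0.04, -0.12 against 0.07, -0.10 against 0.10 and -0.01 against 0.07 in those 5 classes. Of the 7 genes of 10 to 30 kb, 5 fell in heterozygotes and 3 in homozygotes, against 14.8% and 11.7% of all features of that length. With the length trend removed from each library, 18 of the 40 genes were called in heterozygotes and 14 in homozygotes, against 20.7% and 20.03% of all features, and the medians were -0.26 and -0.22. Across the 40 genes, Spearman's rho of fold change with body length was 0.39 in heterozygotes and 0.32 in homozygotes against wild type, and -0.54 between homozygotes and heterozygotes. Over all features it was 0.27, 0.20 and -0.16. These are descriptions over genes that share libraries. The value of -0.54 became -0.16 without heterozygous library 3. Without wild-type library 1, rho for the 40 genes against wild type was 0.35 in heterozygotes and 0.17 in homozygotes. Pearson's correlation with log10 body length was 0.05 and -0.06 for the 40 genes, and 0.23 and 0.16 over all features.

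**Figure D4:**
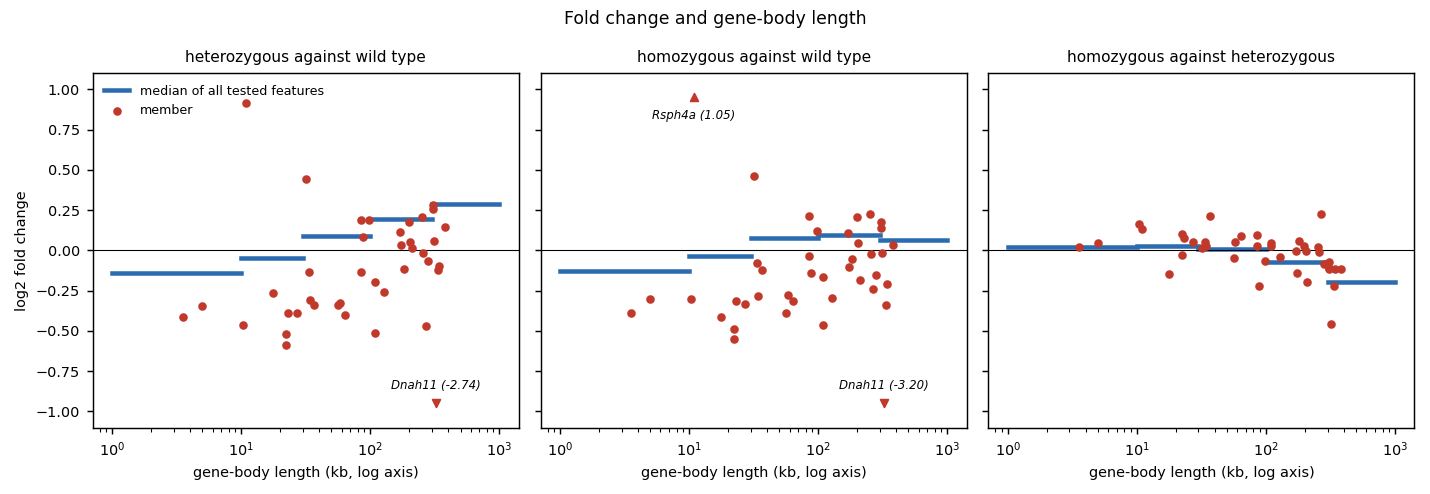
Log2 fold change of the 40 genes (points) against gene-body length in kb (log axis) in the 3 comparisons, with the median of all tested features in 5 length classes (lines; the first class is under 10 kb and the last 300 kb and over). Triangles mark values outside the axis. Against wild type, genes of 10 to 30 kb lie mostly under the line, and long genes lie nearer to 0.

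On the opposite strand, 37 of the 40 genes had enough counts to test. In homozygotes against wild type 3 were higher (Dnah8, Spag17 and Cfap58) and 1 lower (Dnah2), where 9.70% of 12303 features were called. In heterozygotes 3 were higher (Ccdc39, Spag17 and Cfap58) and 1 lower (Dnah2), with 10.2% called. The largest was Cfap58, whose opposite-strand counts of 28, 37 and 26 in wild type stood beside 120, 72 and 96 in heterozygotes and 85, 99 and 51 in homozygotes. Its log2 fold changes were 1.37 (adjusted p = 0.00479) and 1.44 (0.00407), while its own strand did not change past the threshold. The median opposite-strand count of the 40 genes was 1.25% of the gene-strand count.

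The other genes of the axoneme, its assembly and its regulation were taken from lists of 91 matched genes, of which 86 were tested. In homozygotes against wild type 6 were higher and 21 lower, with a median log2 fold change of -0.12, and in heterozygotes 4 and 24, with a median of -0.16. Over all features 9.68% were higher and 11.1% lower in homozygotes, and 11.1% and 12.9% in heterozygotes, which is the background for each list too. Between homozygotes and heterozygotes edgeR called 0, with 2 at an unadjusted p under 0.05. By list, 6 of 18 tested doublet-lumen genes fell in each mutant genotype, and 1 rose in homozygotes. Of 16 dynein assembly genes, 3 fell and 1 rose in homozygotes, and 5 fell and 2 rose in heterozygotes. The 12 further dynein subunits gave 3 lower and 1 higher in each, the 18 spoke and nexin genes 4 lower and 2 higher in homozygotes and 6 and 1 in heterozygotes, and the 10 central apparatus genes 1 lower in each, near the background. Of 12 regulators, 4 fell and 1 rose in homozygotes, and 3 fell and 0 rose in heterozygotes.

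The lowest adjusted p among these belonged to Camsap3, a microtubule minus-end protein. It stood at 19.3 ± 2.39 CPM for Chr18+/+, 9.76 ± 1.65 for Chr18+/- and 10.1 ± 0.575 for Chr18-/- (-0.99, adjusted p = 0.00134, and -0.93, 0.00171). Dnaaf3, a cytoplasmic factor that assembles dynein arms, stood at 13.3 ± 2.49, 6.53 ± 1.02 and 6.81 ± 1.03 CPM (-1.03, adjusted p = 0.00319, and -0.97, 0.00410). Next came Lrrc23, a spoke protein, in heterozygotes (-0.59, adjusted p = 0.00564) and Rfx1, an X-box binding factor, in homozygotes (-0.57, 0.00659).

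Among those that rose, Tctex1d2, a dynein light chain gene, had log2 fold changes of 0.58 in heterozygotes (adjusted p = 0.0224) and 0.54 in homozygotes (0.0323). Pih1d3, a dynein assembly factor, had 0.48 (0.0295) and 0.54 (0.0205). Drc3, of the nexin-dynein regulatory complex, rose by 0.31 in homozygotes (0.0174) and Tbc1d31 by 0.30 in heterozygotes (0.0223). Rsph3b, the copy of Rsph3a, fell by 0.95 in homozygotes (adjusted p = 0.0129), with -0.45 in heterozygotes (0.153). Foxj1, a master regulator of motile cilia genes named here after its values were seen, stood at 84.9 ± 19.7 CPM for Chr18+/+, 42.2 ± 9.77 for Chr18+/- and 41.1 ± 11.2 for Chr18-/-. Its log2 fold changes were -1.01 (adjusted p = 0.00866) and -1.05 (0.00796). Of the 12 regulators tested, Foxj1 was among the 4 that fell in homozygotes, where 1 rose.

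Of the marker lists of testis cell types, 3 had most or many of their genes called in 1 direction. Early meiotic markers were higher for 9 of 12 genes in heterozygotes and 11 of 12 in homozygotes, and their summed level was 1895 to 1991 CPM for Chr18+/+, 2410 to 2997 for Chr18+/- and 2639 to 2940 for Chr18-/-. Elongating spermatid markers were lower for 10 of 17 in heterozygotes and 8 of 17 in homozygotes, with summed levels of 19940 to 20668, 7201 to 16465 and 11549 to 14733 CPM, heterozygous library 1 being the lowest and Cabs1 at 0 in all libraries. Leydig cell markers were lower for 9 of 11 in each, with summed levels of 1397 to 1532, 616 to 805 and 577 to 756 CPM, Insl3 being at 0 in all libraries. Both genes at 0 are wholly overlapped by other features, whose shared fragments were not counted. In the stages in between, markers were called in both directions. The background over all features was 11.1% higher and 12.9% lower in heterozygotes, and 9.68% and 11.1% in homozygotes. Pachytene markers gave 1 higher and 2 lower of 12 in heterozygotes and 3 higher and 1 lower in homozygotes, with summed levels of 5623 to 5898, 5473 to 5657 and 5579 to 5832 CPM, and Spag6 is also in this list. Of those higher, Sycp1 (in both genotypes) is also an early meiotic marker, and Mybl1 (in homozygotes) is also in the list of regulators. Round spermatid markers gave 1 higher and 2 lower of 12 in each, with 1692 to 1874, 1471 to 1616 and 1550 to 1677 CPM, lower in every mutant library. Spermatogonial markers gave 1 higher and 1 lower of 10 in each, with 147 to 180, 137 to 148 and 145 to 157 CPM. Sertoli cell markers gave 3 higher and 1 lower of 12 in heterozygotes and 1 and 1 in homozygotes, with 1206 to 1244, 1066 to 1138 and 1110 to 1278 CPM. The part of these cell types in the fold changes of the axonemal genes was not tested.

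Markers of multiciliated epithelium, in which Dnah5, Dnah9, Dnah11 and Rsph4a are normally abundant, summed to 293 to 324 CPM for Chr18+/+, 243 to 287 for Chr18+/- and 251 to 280 for Chr18-/-. Foxj1 was the 1 of 6 tested that was called, in both mutant genotypes, and it is also in the list of regulators. Of the 11 markers, Sntn, Cdhr3, Cdhr4 and Mcidas stood at or under 0.113 CPM in each group mean. The other markers of the list, Foxj1 among them, carried nearly all of the sum. None of the 11 markers was at 0 in all libraries. Markers of the efferent ducts and epididymis summed to 103 to 136 CPM for Chr18+/+, 96.2 to 126 for Chr18+/- and 106 to 113 for Chr18-/-.

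Small RNA from these genes was scarce. The 40 genes held 3631 reads in exons on the gene strand over the 6 libraries, whose totals were 939641 to 1861402. They took 0.0448 to 0.0480% of each heterozygous library and 0.0450 to 0.0469% of each homozygous one. Dnah8 supplied 21.0% of these reads. Dnah5, Dnah9, Dnah11 and Rsph4a each had at most 2 reads in all.

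The small RNA filter kept 17 of the 40 genes, and 0 of these passed between homozygotes and heterozygotes in edgeR or DESeq2, where 0.0279% of 3581 features were called in edgeR. Dnali1 was the 1 gene with an unadjusted p under 0.05, as had 8.71% of all features. Its reads numbered 69, 49 and 58 in heterozygotes and 48, 41 and 27 in homozygotes, with a log2 fold change of -0.55 ± 0.19 (adjusted p = 0.557). Dnah8 had 193, 52 and 77 reads in heterozygotes and 187, 153 and 101 in homozygotes, or 76.8 ± 33.1 and 118 ± 17.9 CPM. Its log2 fold change of 0.61 ± 0.29 did not pass (adjusted p = 0.557). Without heterozygous library 1, which stood apart from its group, Dnah8 was called (1.02, adjusted p = 2.19e-04), in a fit that called 617 features in place of 1.

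Cfap61 fell outside the small RNA filter, with 3, 0 and 1 reads in heterozygotes and 8, 6 and 10 in homozygotes. All 3 homozygous libraries were higher, and with no filter the log2 fold change was 2.63 ± 0.72 (adjusted p = 0.0895 over all features with a read). These counts are too small to bear more than their own listing.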

How the data were processed

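Long RNA: the deposited counts were fragments per whole gene body, introns included, from featureCounts 1.6.2 on both strand settings with the GENCODE M12 annotation plus piRNA precursors, per the file headers; fragments in overlapping features of 1 strand were not counted. Small RNA: the deposited counts were reads in exons from featureCounts 1.6.1. Alignment used HISAT2 2.1.0 or Bowtie2 2.2.5 on mm10 or mm9, per the submitters' processing notes, which do not say which data took which. The members' coordinates lie on mm10.

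Counts of the reverse-strand setting were filtered by expression per group, scaled by TMM and tested with edgeR 4.0.16 (quasi-likelihood, 1 fit over 9 libraries; a second over 6 small RNA libraries) in R 4.3.3, with Benjamini-Hochberg adjustment over all features and a threshold of 0.05. Scaling factors were 0.879 to 1.05, and the opposite-strand total was 8.81 to 10.7% of the kit strand. DESeq2 1.42.0 was an alternative. The test was tested on simulated data. CPM divide by the scaled library size. Named are genes called in any comparison and the highest per role per kb, with at most 3 other pathway genes per direction and comparison. Members, lists and motifs were chosen with earlier results of these data known.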

Additional observations from a re-analysis of the deposited data

How the results depend on the processing

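Of the calls against wild type for the 18 named genes, 4 of 14 in heterozygotes (Ccdc39, Dnah11, Dnah17 and Rsph9) and 2 of 9 in homozygotes (Dnah11 and Rsph9) held in all 18 alternative settings, and no called fold change changed sign. In homozygotes against wild type, the number of genes called was 14 with the length trend removed and 3 to 12 with 1 library left out (4 with homozygous library 2 left out, 3 with library 3), and features called were 1805 to 4737. In heterozygotes against wild type, genes called were 8 with only the groups compared in the fit, 5 to 12 with 1 library left out (6 for wild-type library 1, and 8, 9 and 5 for heterozygous libraries 1, 2 and 3) and 5 without wild-type library 1 and heterozygous library 1 (chosen after seeing the data), while features called were 2432 to 4720 and 2722. Between homozygotes and heterozygotes, features called were 17 in DESeq2, 13 with no filter and 4 to 18 with 1 library left out, and genes called stayed at 0. For small RNA, features called were 43 with no filter and 0 to 617 with 1 library left out (617 for heterozygous library 1), and genes called 0 to 1. Same-numbered small RNA samples were not paired by the labels, and their deviations correlated at -0.16, 0.00 and -0.09; with the number as a replicate block 0 features and 0 genes were called. No scaling beyond library size moved the median of all features by 0.10 in heterozygotes and 0.05 in homozygotes and the share of calls that were higher from 46.3 to 66.8% and from 46.6 to 56.9%, while the medians of the 40 genes stayed under 0 (-0.03 and -0.11). Counts of 25 or fewer per library, as for Dnah11 in 1 homozygous library and Rsph4a in all, limit precision there. The cause of these shifts was not tested.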
